A study of Zea mays with 9 samples.

Results

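RNA from whole maize seedlings of the genotype P1-ww714 was set against RNA from seedlings of B73, with 3 libraries of each, chosen by their genotype labels. These are 6 of the 9 libraries of the series, and all were from seedlings 14 days old. B73 is the inbred line on which the maize reference genome is built, and P1-ww714 is an allele of p1. The label names a single allele, P1-ww714, and is read here as the homozygote, which the labels do not spell out. The other 3 libraries, of the heterozygote P1-ww714/B73, entered the estimate of the spread and are given below as levels only. How many plants went into a library, and whether the libraries came from separate plants, is not stated in the labels. The p-values therefore reflect only the spread among these libraries, which may be technical. The series asks how transcript levels follow gene dosage.

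The gene p1 lies on chromosome 1 and encodes a MYB transcription factor that switches on genes for phlobaphenes, the red pigments of cob and kernel coat. It is background knowledge, not stated in the labels, that this allele goes with a tandem duplication, a stretch of chromosome 1 with 1 end at p1. A plant homozygous for such a duplication has additional copies of every gene in the stretch, and in maize the transcript of a gene often, but not always, rises with its copies. Genes elsewhere can change when a regulator inside the stretch changes, or when the lines compared also differ in sequence there.

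The 3 B73 libraries held 12201558, 12114433 and 9668982 counts, and the 3 P1-ww714 libraries held 15248095, 11705340 and 15963344. Counts per library are given below without scaling. Their ratios are therefore not the fitted folds, which take library size into account. Among all 9, P1-ww714/B73 replicate 1 was least like the rest, with a mean correlation of 0.965 with the other libraries against 0.974 to 0.982. Of 39656 gene identifiers, 22544 had enough counts to be tested, and levels are given as CPM, counts relative to library size scaled by the TMM method of edgeR. Markers of leaf mesophyll, the outer photosynthetic tissue of a C4 leaf, summed to between 28072 and 32723 CPM in B73 and between 29137 and 36114 CPM in P1-ww714. Markers of the bundle sheath, the inner tissue where Rubisco works, summed to between 6200 and 9069 CPM and between 6302 and 8403 CPM. The mesophyll sum also took in pdlk1 (GRMZM2G107196), PDK1 (GRMZM2G097821) and Pep1 (GRMZM5G899080), which matched by symbol or synonym. These may not mark mesophyll, and each had a mean of at most 46.3 CPM in either group. The bundle sheath sum took in pep4 (GRMZM2G473001), which may not mark that tissue, at means of 207 CPM in B73 and 199 CPM in P1-ww714. The shoot meristem marker kn1 had 0 counts in every library and lg3 and lg4 had at most 2, and the root markers pht1 and rth3 together summed to between 25.4 and 57.2 CPM in B73 and between 46.7 and 65.8 CPM in P1-ww714. In bulk tissue, fewer cells of a type and less RNA per cell cannot be told apart. Few reads came from p1 itself (GRMZM2G084799), with 4, 4 and 11 counts in P1-ww714 libraries, 2, 1 and 1 in heterozygote libraries and 1, 0 and 1 in B73 libraries. It did not pass the filter on low counts. In a fit with no such filter its edgeR p was 0.00708 and its adjusted p was 0.342 among 30265 genes, so it does not check the genotype labels at this depth.

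In P1-ww714, 147 genes rose and 28 fell relative to B73 in the edgeR quasi-likelihood test with a Benjamini-Hochberg adjusted p under 0.05. The rises were 0.652% and the falls 0.124% of the 22544 genes tested. Most rises were close to a doubling, with a median log2 fold of 1.07 and 89 of the 147 at 2-fold or more. The falls were fewer and steeper, with a median log2 fold of -1.48 and 22 of the 28 at 2-fold or more. The median over all tested genes was -0.002. DESeq2 called 224 genes higher (0.994%) and 87 lower (0.386%). The count of falls is sensitive to single libraries, and was 56 when P1-ww714/B73 replicate 1 was left out, 16 and 15 when P1-ww714 replicates 1 and 2 were each left out, and 17 and 18 for B73 replicates 2 and 3.

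**Figure D1:**
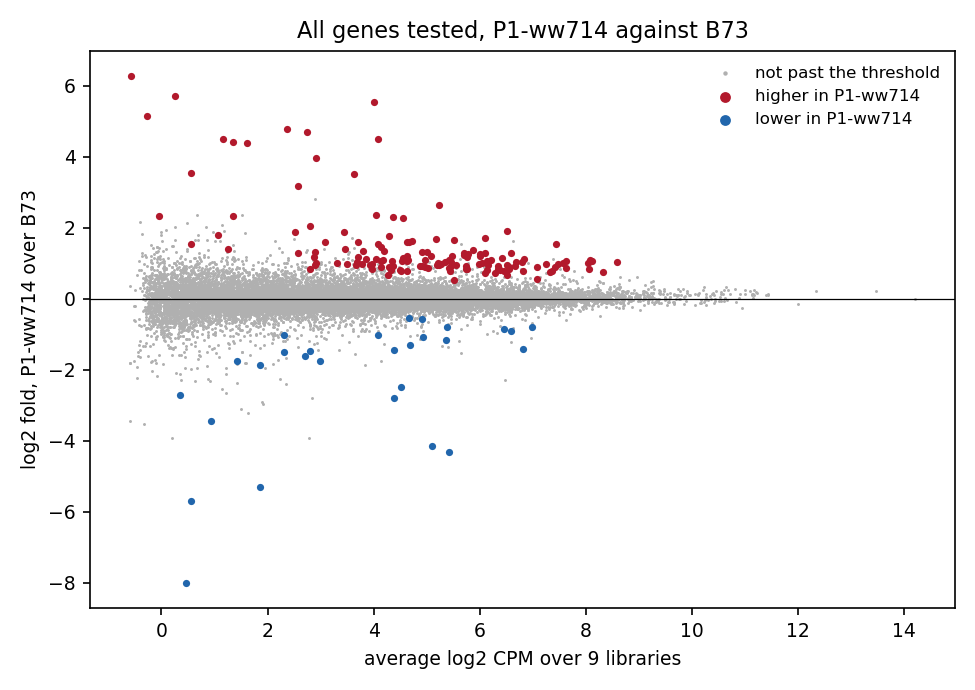
Each point is 1 of the 22544 tested genes, with its average log2 CPM over the 9 libraries on the horizontal axis and its fitted log2 fold of P1-ww714 over B73 on the vertical axis. The 147 rises (red) gather near a log2 fold of 1 over a wide range of expression, and the 28 falls (blue) are scattered. The fitted folds of the 2 genes with 0 counts in a group depend on the prior count of the fit.

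Full separation of the groups was far more common than a call. With only 3 libraries per group, genes with no true difference can also separate fully. The counts of separated genes are therefore not counts of changed genes. In 1546 genes (6.86% of those tested) the lowest P1-ww714 library lay above the highest B73 library, and in 1448 genes (6.42%) the highest P1-ww714 library lay below the lowest B73 library, so that 2994 genes (13.3%) did not overlap. All 147 rises and all 28 falls were among them, which left 1399 genes separated upwards and 1420 separated downwards that did not pass the test. Most separated genes differed little. The median log2 fold was 0.43 for those separated upwards and -0.33 for those separated downwards, and 64.8% and 76.7% of them differed by less than 1.5-fold. Of the genes that were separated upwards and at least 2-fold higher, 89 of 206 passed the test, and of those separated downwards by at least 2-fold, 22 of 123 did. Scaling by library totals alone, without TMM, gave 1168 genes separated upwards and 1644 downwards.

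Separation was spread over the genome and the calls were not. On chromosomes 2 to 10, 6.22% of 13205 tested genes were separated upwards and 5.53% downwards, and 10 genes (0.0757%) passed the test. On chromosome 1, 88 of 2498 genes rose and 19 fell. Within 300 tested genes of p1 on either side there were 87 rises and 19 falls among 600 genes, and in the remaining 1898 tested genes of chromosome 1 there was 1 rise. Another 51 rises and 7 falls (0.85% of 6823 tested) were in identifiers that the reference gene table does not hold, so their place is not known here. The order of genes is that of assembly Zm-B73-REFERENCE-NAM-5.0, and since the sources used here do not name the build of the counts, no coordinates are printed.

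The 150 tested genes that follow p1 in this order carried most of the rises. Of these genes, 83 rose, 5 fell and 62 did not pass the test. Blocks of 50 genes had median log2 folds of 0.97 (genes 1 to 50), 0.90 (51 to 100) and 0.82 (101 to 150), and the next block of 50 was at -0.06. The share of genes separated upwards was 88%, 82% and 60% in the 3 blocks and 2% in the next, against 6.86% over all tested genes. The limit of 150 genes was set with these folds known, so the counts within it describe the stretch and do not test it. The count of 83 rises was between 66 and 91 when any 1 of the 9 libraries was left out.

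**Figure D2:**
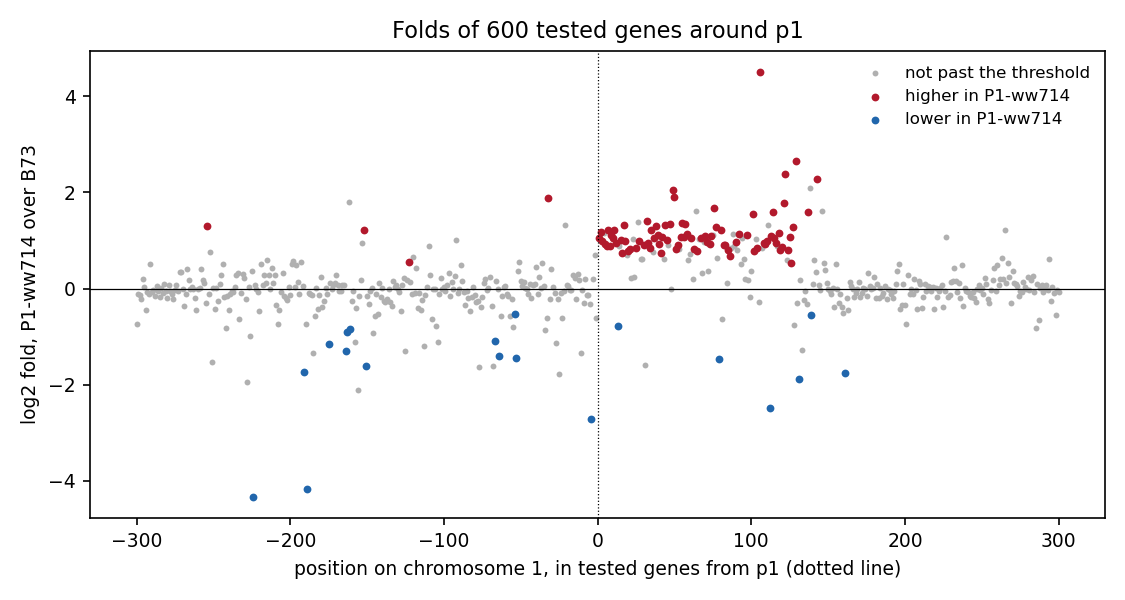
Fitted log2 fold of P1-ww714 over B73 for the 600 tested genes nearest to p1 on chromosome 1, placed by their order in tested genes from p1. The points lift to about 1 directly after p1 and return to about 0 around gene 150, while blue points, which mark falls, lie mainly before p1.

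**Figure D3:**
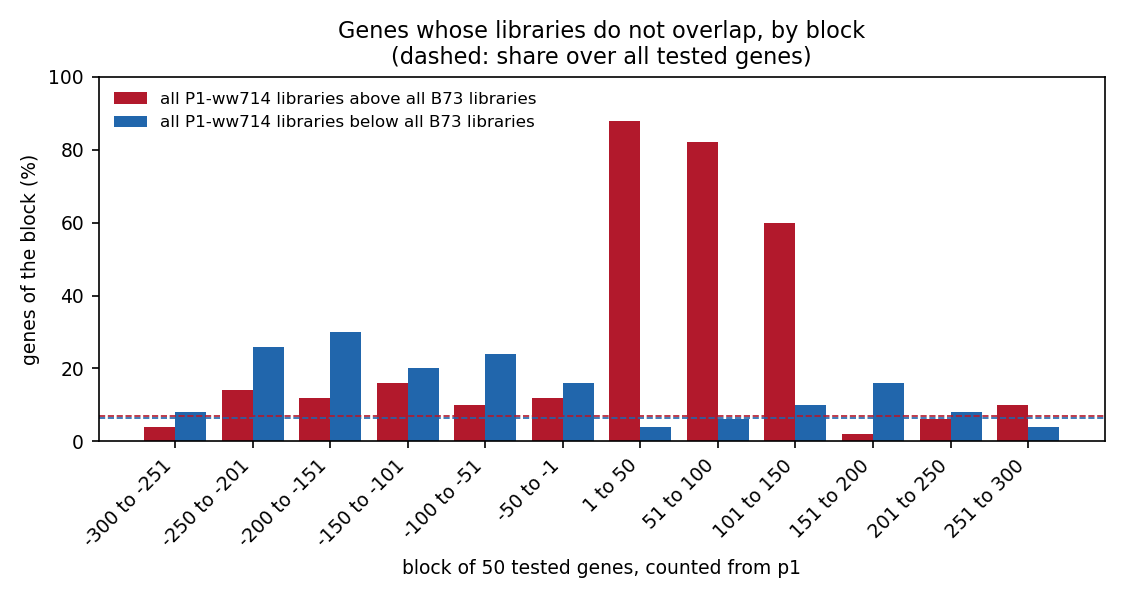
Share of genes in each block of 50 tested genes, counted from p1, whose P1-ww714 libraries lie all above (red bars) or all below (blue bars) the B73 libraries. The dashed lines are the shares over all tested genes, 6.86% and 6.42%. Red bars reach 88% in the block after p1, and blue bars stand at 16% to 30% in the 5 blocks nearest before p1.

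Of the 150 genes after p1, 22 have a symbol, and 14 of these rose, 2 fell and 6 did not pass the test. Regulators of transcription and chromatin were among the rises. The gene mez3 (GRMZM2G043484) encodes a subunit of the Polycomb complex that marks silent chromatin, and it had 251, 214 and 229 counts in B73 against 656, 448 and 535 in P1-ww714. GLK17 (GRMZM2G006477), of the Golden2-like factor family, had 779, 762 and 715 counts against 1913, 1478 and 1800. The bZIP factor bZIP52 (GRMZM2G174284) had 679, 730 and 586 counts against 1552, 1287 and 1560, and ZBP14 (GRMZM2G018728) had 753, 797 and 649 against 1786, 1522 and 1899. In each of these 4 genes the lowest P1-ww714 library stood well above the highest B73 library. Their log2 folds lay between 0.85 and 0.95 with standard errors of 0.10 to 0.14, and the call of mez3 was lost without B73 replicate 2 (edgeR adjusted p = 0.0532).

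The other rises with a symbol included genes of light, calcium and potassium physiology. PhyB1 (GRMZM2G124532), a phytochrome that senses red light, had 758, 813 and 714 counts in B73 and 2114, 1589 and 2132 in P1-ww714. That is a rise from 66.5 ± 6.67 to 137 ± 2.75 CPM (SD, n = 3 per group), with a log2 fold of 1.04 (standard error 0.10, edgeR adjusted p = 0.000567). CaM1 (GRMZM2G152891), a calmodulin that binds calcium, had 1627, 1493 and 1049 counts against 3720, 2659 and 3789. HAK8 (GRMZM2G173387), a potassium transporter, had 994, 789 and 693 against 2191, 1444 and 2214. The log2 folds of CaM1 and HAK8 were 0.99 and 0.94, each with a standard error of 0.11. The groups did not overlap in CPM in PhyB1, CaM1 or HAK8. CYP714B3 (GRMZM2G106408) belongs to a cytochrome P450 family whose rice members act on gibberellins, and its counts of 156, 97 and 93 in B73 became 431, 282 and 364, a log2 fold of 1.34 (standard error 0.15, edgeR adjusted p = 0.00127). The gene named sbip2a (GRMZM2G175038) had 175, 176 and 131 counts against 374, 318 and 416, a log2 fold of 0.91 (standard error 0.12). For nad1 (GRMZM2G018941), 1380, 1567 and 1190 counts stood against 2970, 2182 and 3457, the smallest log2 fold of the 14 rises at 0.75. The call of nad1 was lost without P1-ww714 replicate 3 (edgeR adjusted p = 0.067), B73 replicate 1 (0.0756) or B73 replicate 3 (0.0826).

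Metabolic and protective enzymes included the largest rise among genes of this stretch with a symbol. That gene was sod4 (GRMZM2G169890), a cytosolic superoxide dismutase that removes superoxide, with 1129, 1192 and 793 counts in B73 and 4180, 2778 and 4337 in P1-ww714. Its level went from 89.4 ± 10.2 to 263 ± 23.9 CPM (SD, n = 3 per group), a log2 fold of 1.56 with a 95% interval of 1.30 to 1.81, which lies above 1. MSRB5.1 (GRMZM2G577677), which repairs oxidised methionine, had 672, 707 and 506 counts against 2083, 1419 and 2156, and its interval of 1.05 to 1.51 also lay above 1. Both enzymes of chlorophyll synthesis among the genes of the stretch with a symbol rose. The gene les22 (GRMZM2G044074), an enzyme of porphyrin synthesis, had 1616, 2373 and 1745 counts against 4302, 4714 and 6010, and DVR (GRMZM2G063048), a reductase near the end of the pathway, had 182, 203 and 149 against 418, 366 and 634. Their log2 folds were 1.10 and 1.11, with standard errors of 0.20 and 0.16. The call of les22 was lost when P1-ww714 replicate 2 (edgeR adjusted p = 0.168), P1-ww714 replicate 3 (0.136), B73 replicate 1 (0.0957) or B73 replicate 3 (0.109) was left out, and that of DVR without B73 replicate 1 (0.0509).

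The 8 other genes with a symbol among these 150 did not rise by this test. Both that fell did so by more than 2-fold. TPS8 (GRMZM2G038153), whose symbol is that of the terpene synthases, had 535, 494 and 343 counts in B73 and 182, 43 and 81 in P1-ww714. It went from 39.3 ± 4.04 to 6.87 ± 4.19 CPM (SD, n = 3 per group) and fell by 2.49 on the log2 scale (standard error 0.31, edgeR adjusted p = 0.00237), and fell by 3.11 without P1-ww714 replicate 1. The sucrose synthase gene sus2 (GRMZM2G318780) had 149, 117 and 103 counts against 73, 37 and 56. It fell by 1.46 on the log2 scale (standard error 0.19, edgeR adjusted p = 0.0036). In neither gene did the groups overlap in CPM.

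The 6 genes with a symbol that did not pass the test were not alike. The log2 fold was 0.61 for cipk31 (GRMZM2G174896), a kinase that works with calcium sensors, with a standard error of 0.14 and an edgeR adjusted p of 0.105. It was 1.04 for SOL (GRMZM2G075262), 1.13 for rps21b (GRMZM2G134109) and 2.09 for pox2 (GRMZM2G040638), with edgeR adjusted p-values of 0.295, 0.156 and 0.415, and in these 4 genes every P1-ww714 library lay above every B73 library in CPM. The value for pox2 rests on 23, 2 and 0 counts in B73, and it was 4.89 with an edgeR adjusted p of 0.00452 without B73 replicate 1. The groups overlapped in both genes nearest the far end. These were pdlk1 (GRMZM2G107196), a kinase that acts on pyruvate dehydrogenase, at 0.10 (95% interval -0.28 to 0.47), and cgs1 (GRMZM2G075153), the enzyme that commits carbon and sulphur to methionine, at 0.40 (95% interval 0.09 to 0.70).

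**Figure D4:**
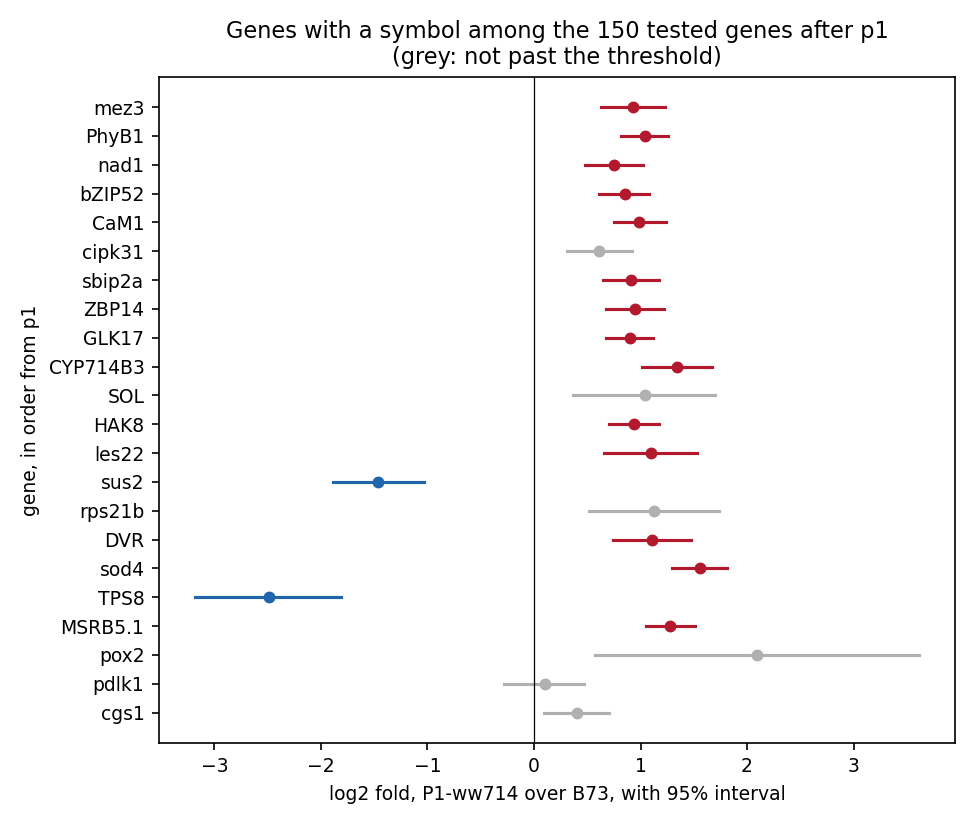
Log2 fold of P1-ww714 over B73 with its 95% interval for the 22 genes with a symbol among the 150 tested genes after p1, in their order from p1. The 14 rises (red) lie between 0.75 and 1.56, and TPS8 and sus2 (blue) lie below 0. Grey marks the 6 genes that did not pass the test.

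The largest rises of all were genes that B73 seedlings hardly expressed. There were 14 rises of 8-fold or more, and 12 of these were in identifiers without an entry in the reference table. The identifier GRMZM2G413066 was absent from the counts of all 3 B73 libraries and had 8, 10 and 14 in P1-ww714. Taking 3 counts over the B73 group as the most that a count of 0 allows, it was at least 8.68-fold higher. That value takes the P1-ww714 counts as exact and leaves out the spread between libraries. The call of GRMZM2G413066 was lost when any 1 B73 library or P1-ww714 replicate 2 or 3 was left out (edgeR adjusted p up to 0.0866). GRMZM2G552469 had 0, 0 and 1 counts against 34, 21 and 32. That is a 70.8-fold ratio with an exact 95% counting interval from 12.4 to 2830, which covers counting error only, and its only B73 count was in replicate 3. Neither identifier has a name here.

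Among identifiers that the table holds, none of the 5 largest rises has a symbol. GRMZM2G123866 of chromosome 2 had 8, 8 and 0 counts in B73 and 186, 133 and 198 in P1-ww714, and its level went from 0.432 ± 0.375 to 12.1 ± 0.838 CPM (SD, n = 3 per group). GRMZM2G308666, which lies 106 genes after p1, had 20, 26 and 5 counts against 462, 321 and 649, a log2 fold of 4.50 (standard error 0.33, edgeR adjusted p = 0.000223). The other three lie between 122 and 143 genes after p1, and none of the 5 overlapped between groups. GRMZM2G140915 had 195, 125 and 60 counts against 1116, 696 and 1094, GRMZM2G703582 had 77, 66 and 39 against 310, 317 and 517, and GRMZM2G459563 had 106, 114 and 63 against 562, 417 and 696. Their log2 folds were 2.66, 2.37 and 2.27, and the intervals of all 3 lay above 1, with the lowest bound at 1.84. The calls of the 5 genes held without any 1 of the 9 libraries, with edgeR adjusted p-values up to 0.0123.

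The largest falls left very few counts in P1-ww714. GRMZM2G317033 had 37, 35 and 16 counts in B73 and no counts in the 3 P1-ww714 libraries. Taking 3 counts over the P1-ww714 group as the most that a count of 0 allows, it was at least 36.1-fold lower, with the B73 counts taken as exact. This is a lower bound, so it does not rank this fall below the ratio of the next gene. GRMZM5G881180 had 37, 39 and 26 counts against 2, 0 and 0, a 62.7-fold ratio with an exact 95% counting interval from 16.9 to 525, and both remaining counts were in P1-ww714 replicate 1. Neither has an entry in the reference table.

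Falls among identifiers that the table holds were steep in a few cases where P1-ww714 replicate 3 stood apart. GRMZM2G311165, 224 genes before p1, had 1322, 748 and 923 counts in B73 and 4, 2 and 183 in P1-ww714. It fell by 4.33 on the log2 scale (standard error 0.85, edgeR adjusted p = 0.0494), and fell by 8.56 without P1-ww714 replicate 3. Its call was lost without any 1 of the other libraries except P1-ww714/B73 replicate 1 (edgeR adjusted p up to 0.168). It was also lost with DESeq2 (adjusted p = 0.0731), and in edgeR with RLE size factors (0.0522), with TMM without chromosome 1 genes (0.0506), at an average log2 CPM of at least 3 (0.0726) and in a fit of B73 and P1-ww714 alone (0.0511). GRMZM2G149624, 189 genes before p1, had 1199, 673 and 529 counts against 21, 16 and 128. It fell by 4.16 (standard error 0.55, edgeR adjusted p = 0.0036), and fell by 5.64 without P1-ww714 replicate 3. In both genes replicates 1 and 2 of P1-ww714 were close to each other and far below replicate 3, which was itself below every B73 library. On chromosome 6, GRMZM2G137535 had 490, 460 and 284 counts against 109, 55 and 53, with no library of P1-ww714 apart from the others to that degree, and fell by 2.80 (standard error 0.43). This call was lost without P1-ww714 replicate 2 (edgeR adjusted p = 0.0718) or 3 (0.0691).

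**Figure D5:**
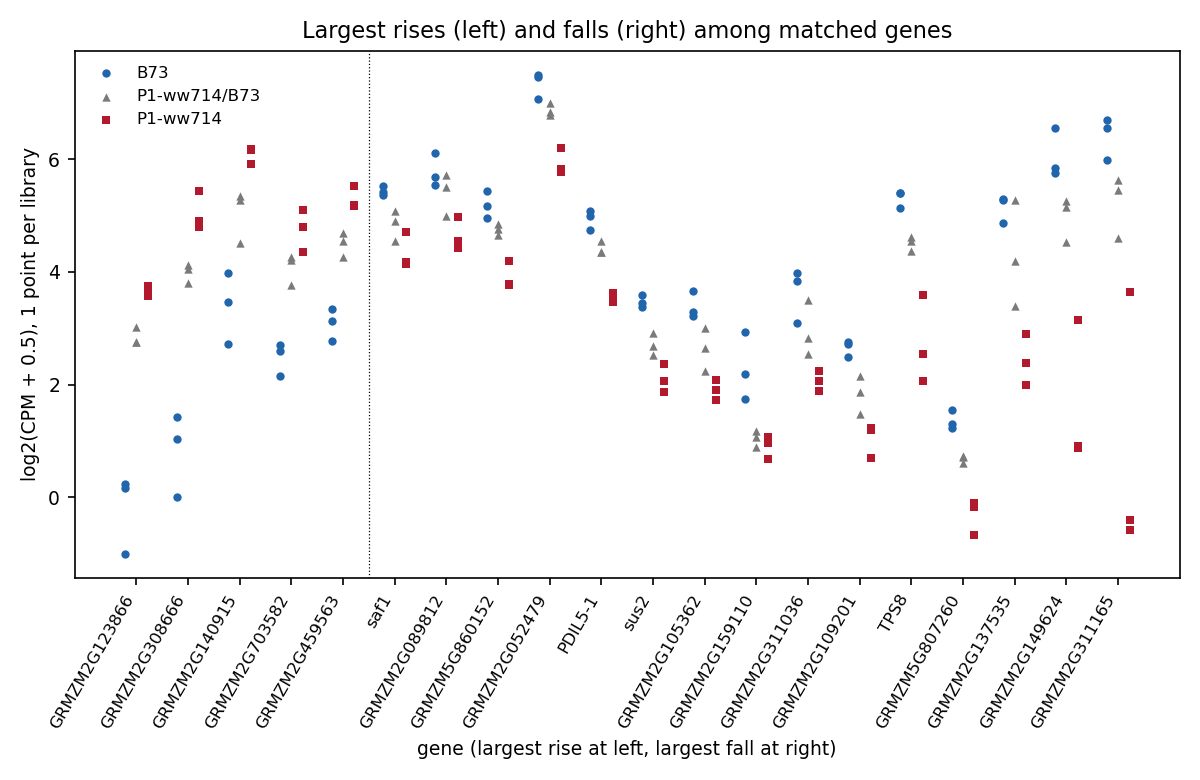
Level of each library, as log2(CPM + 0.5), for the largest rises (left of the dotted line) and falls (right of it) among identifiers in the reference table, with B73 as circles, P1-ww714/B73 as triangles and P1-ww714 as squares. No gene shows overlap between circles and squares, and the upper square of GRMZM2G149624 and of GRMZM2G311165 is P1-ww714 replicate 3.

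Before p1, falls outnumbered rises. Among the 300 tested genes before p1, 13 fell and 4 rose (5.67% called, against 0.776% over all tested genes), and 62 (20.7%) were separated downwards against 6.42% over all tested genes. Another 34 (11.3%) were separated upwards against 6.86% over all tested genes. The median log2 fold of these 300 genes was -0.04. In the 5 blocks of 50 genes nearest p1 the share separated downwards was 16%, 24%, 20%, 30% and 26%, and it was 8% in the sixth. The share separated upwards in the same 6 blocks was 12%, 10%, 16%, 12%, 14% and 4%. On the other side, the 150 genes beyond the first 150 after p1 held 1 fall, GRMZM2G311036 with 197, 164 and 80 counts in B73 and 50, 43 and 64 in P1-ww714, and 9.33% of them were separated downwards, with 16%, 8% and 4% in their 3 blocks of 50. The call of that gene was lost when any 1 P1-ww714 library or B73 replicate 1 or 2 was left out (edgeR adjusted p up to 0.118). The 13 falls became 6 to 8 when P1-ww714 replicate 1 or 2, or any 1 of the 3 B73 libraries, was left out.

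Of the 300 genes before p1, 37 have a symbol, and 3 of these fell while none rose. The gene saf1 (GRMZM2G042639), induced by herbicide safeners, had 580, 481 and 420 counts in B73 and 401, 201 and 267 in P1-ww714, from 42.7 ± 2.40 to 20.1 ± 4.75 CPM (SD, n = 3 per group), and fell by 1.08 on the log2 scale (standard error 0.18). Its call was lost when any 1 B73 library or P1-ww714 replicate 2 or 3 was left out (edgeR adjusted p up to 0.0896). The other two, GRMZM2G443655 and GRMZM2G073628, both carry the symbol PDIL5-1, of the protein disulfide isomerases that fold secreted proteins. GRMZM2G443655 had 338, 399 and 311 counts against 165, 130 and 179, and fell by 1.45 (95% interval -1.73 to -1.17). GRMZM2G073628 had 375, 372 and 299 counts against 354, 221 and 319, and fell by 0.54 (95% interval -0.77 to -0.30). This call was lost without any 1 library other than P1-ww714/B73 replicate 1 (edgeR adjusted p up to 0.233). It was also lost in edgeR with no filter (0.0625), with the replicate number as a block (0.0592) and in a fit of B73 and P1-ww714 alone (0.0679). Of the 34 that did not pass, GLN6 (GRMZM2G050514), a glutamine synthetase, had 782, 925 and 746 counts against 233, 184 and 652, with a log2 fold of -1.54 and an edgeR adjusted p of 0.105. PYL7 (GRMZM2G144224), an abscisic acid receptor, was at -1.13 (edgeR adjusted p = 0.123), and ts2 (GRMZM2G455809), the sex determination gene tasselseed2, was at 1.32 (edgeR adjusted p = 0.145). GLN6, PYL7 and ts2 were picked with their values in view. Laccase-17 (GRMZM2G305526) had the lowest edgeR adjusted p of the 34 at 0.0691, with a log2 fold of -1.11 and no overlap in CPM.

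Other large falls without a symbol in this stretch covered a range of levels. GRMZM2G052479, 64 genes before p1, had 1704, 2144 and 1721 counts in B73 and 847, 655 and 1114 in P1-ww714, and fell from 162 ± 25.7 to 61.0 ± 10.5 CPM (SD, n = 3 per group, edgeR adjusted p = 0.00115). GRMZM5G860152 had 391, 422 and 422 counts against 206, 155 and 270. GRMZM5G807260, 4 genes before p1, had 25, 22 and 24 against 6, 5 and 2. The calls of these 3 genes held without any 1 library. GRMZM2G105362 (155, 104 and 92 counts against 51, 33 and 57), GRMZM2G089812 (591, 812 and 503 against 327, 267 and 470) and GRMZM2G159110 (91, 34 and 40 against 25, 13 and 22) also fell. Their calls were lost without P1-ww714 replicate 2 (edgeR adjusted p of 0.0524, 0.216 and 0.234). That of GRMZM2G089812 was also lost without P1-ww714 replicate 1 or any 1 B73 library, and that of GRMZM2G159110 without any 1 library but P1-ww714/B73 replicate 1 and B73 replicate 2. Other settings also ended these edgeR calls, with an adjusted p of 0.0535 for GRMZM2G089812 at an average log2 CPM of at least 3. For GRMZM2G159110 it was 0.0515 with RLE size factors, 0.0509 with TMM without chromosome 1 genes and 0.0776 in a fit of B73 and P1-ww714 alone.

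The 10 calls on chromosomes 2 to 10 were 8 rises and 2 falls. PPCK1 (GRMZM2G178074) of chromosome 5, the kinase that activates the C4 enzyme phosphoenolpyruvate carboxylase, was the only one with a symbol. It had 87, 92 and 110 counts in B73 and 304, 252 and 516 in P1-ww714, a rise from 8.53 ± 2.27 CPM in B73 to 24.9 ± 7.82 CPM in P1-ww714 (SD, n = 3 per group, log2 fold 1.56, standard error 0.29, edgeR adjusted p = 0.039). Every P1-ww714 library lay above every B73 library, and replicate 3 was the highest. Leaving out any 1 of 6 libraries ended the call, with edgeR adjusted p-values of 0.0987 and 0.154 for P1-ww714 replicates 2 and 3, 0.0632 for P1-ww714/B73 replicate 2, and 0.188, 0.208 and 0.0527 for B73 replicates 1, 2 and 3. GRMZM2G123866, described above, and GRMZM2G576752 of chromosome 9, with 280, 345 and 278 counts against 839, 591 and 887, were the 2 of the 10 whose calls held without any 1 library. The latter was picked with its values in view. The count on chromosomes 2 to 10 is unstable. Leaving out P1-ww714 replicate 1, 2 or 3 turned the 8 rises into 9, 3 or 2 and the 2 falls into 1, 0 or 1. Leaving out heterozygote replicate 1, 2 or 3 gave 12, 4 or 6 rises and 12, 1 or 8 falls. Leaving out B73 replicate 1, 2 or 3 gave 3, 5 or 2 rises and 3, 1 or 1 falls. DESeq2 called 34 rises and 22 falls there.

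Calls in lists of genes with known functions in seedlings were in chlorophyll synthesis and the C4 cycle. Genes were assigned to 11 lists by symbol, which can take in genes of other function. Among 16 tested genes listed for chlorophyll synthesis and its regulators, 3 rose (les22, DVR and GLK17), and the median log2 fold was 0.10. All 3 lie among the 150 genes after p1, of which 83 rose, while 0.652% of all tested genes did. GLK17 entered the list by symbol, and its role in chlorophyll synthesis was not tested. Among 23 C4 cycle and Rubisco genes, PPCK1 alone rose, and the median was -0.01. The C4 enzyme gene pdk1 (GRMZM2G306345) stood at 18420 ± 1224 CPM in B73 and 18386 ± 1227 in P1-ww714, and pep1 (GRMZM2G083841) at 10137 ± 893 and 11855 ± 2339 CPM (SD, n = 3 per group), both with overlap.

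No member passed in the other 9 lists. They were heat shock (24 tested, median log2 fold 0.36), benzoxazinoid defence compounds (11, 0.26), flavonoid and anthocyanin pigments (13, 0.25), photosystems and light harvesting (15, 0.15), histones (9, 0.15), nitrate uptake and reduction (13, 0.11), jasmonate (41, 0.06), cell division (37, -0.06) and circadian clock genes (3, -0.28). Separation upwards was seen in 6 of 24 heat shock genes, 3 of 11 benzoxazinoid genes, 6 of 41 jasmonate genes, 3 of 37 cell division genes, 1 of 15 photosystem genes and 1 of 13 nitrate genes, beside 6.86% over all tested genes. It was seen in none of the flavonoid and anthocyanin, histone or clock genes. Separation downwards, 6.42% over all tested genes, was seen in 1 of 24 heat shock, 1 of 41 jasmonate and 1 of 3 clock genes. The others of the 9 lists had none. The chaperone hsp70-4 (GRMZM2G340251) rested at 1101 ± 33.8 CPM in B73 and 1309 ± 119.7 in P1-ww714. BX5 (GRMZM2G063756), of benzoxazinoid synthesis, was at 532 ± 40.6 and 748 ± 179 CPM, and the nitrate reductase gene NNR1 (GRMZM2G568636) at 398 ± 67.1 and 614 ± 164 CPM (SD, n = 3 per group). Each of the 3 was separated, and none passed the test (edgeR adjusted p of 0.871, 0.562 and 0.337). They are the members with the highest mean CPM in their lists. In each of the other lists without a call, that member overlapped between groups. P1-ww714 replicate 3 stood above replicates 1 and 2 in the medians of heat shock (0.49 against 0.16 and 0.15 on the log2 scale over the B73 mean), benzoxazinoid (0.58 against 0.21 and 0.10) and flavonoid and anthocyanin genes (0.55 against -0.01 and 0.17). It also stood above them in photosystem genes (0.37 against -0.04 and 0.02) and nitrate genes (0.22 against -0.01 and 0.07), and below them in clock genes (-0.65 against -0.21 and -0.03). Its part in the list medians was not tested.

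The heterozygote lay between the 2 genotypes in every called gene. Its mean CPM was between those of B73 and P1-ww714 in all 147 rises and all 28 falls, against 42.8% of all tested genes. These genes were selected for a difference between the outer groups, so the count is a description. The 3 heterozygote libraries, each on its own, lay above every library of the lower group and below every library of the higher group in 119 of the 147 rises and 19 of the 28 falls. For sod4 the heterozygote had 1798, 2748 and 1604 counts, for TPS8 255, 379 and 194, and for GRMZM2G308666 189, 252 and 129. Among the 14 rises of 8-fold or more, the 3 heterozygote libraries stood apart from both groups in 12.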

How the data were processed

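The authors deposited 1 table of whole-number counts per gene for 9 libraries. TopHat and HTSeq are named, with no version, per the submitters' processing notes. The sources used here name neither genome build nor annotation, and do not say whether strand was used or how reads that fit several genes were counted. Values of close paralogs, of genes that overlap and of antisense pairs are therefore uncertain. All 9 columns matched a sample title. Of 39656 identifiers, 18775 (47.3%) matched an entry of the RefSeq gene table for Zm-B73-REFERENCE-NAM-5.0, and 2512 had a symbol, taken from its symbols and synonyms.

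Counts were tested with edgeR 4.0.16 in R 4.3.3: filterByExpr (minimum count 10), TMM scaling, a quasi-likelihood F test of P1-ww714 against B73 in a fit of all 9 libraries, and Benjamini-Hochberg adjustment over 22544 genes at 0.05. Standard errors came from the fold and its F value. The procedure was tested on simulated data, drawn with the spread estimated from these same libraries. The simulated libraries were independent, so that test cannot show how the procedure behaves where libraries share effects. Alternatives were RLE size factors, TMM factors without chromosome 1 genes, DESeq2 1.42.0, no filter, an average log2 CPM of at least 3, the replicate number as a block, a fit of B73 and P1-ww714 alone, a threshold of 0.01, and leaving out each library. For separation, library totals without TMM were also tried.

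The named genes were the 20 largest rises and 20 largest falls past the threshold, the 15 genes with a symbol that had the highest mean CPM in each direction, list members that passed, and p1. Of identifiers without a reference entry, 2 rises and 2 falls are printed. Genes with a symbol near p1 were added by place. The members, lists and rules were chosen with earlier results of these data known. Replicates of a group differed by more than sampling noise (chi-square of 6.68 to 15.1 per gene), so none was counted as a copy. Counts over regions under each alternative were added after seeing the data.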

Additional observations from a re-analysis of the deposited data

How the results depend on the processing

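All 40 named genes kept their direction under every alternative that gave a value, and 26 kept their call under each of them apart from the minimum of average log2 CPM 3, under which 28 of the 40 were called. Of 629 values of named genes under alternatives, 557 kept the call, 72 lost it and 0 reversed. The scaling by RLE or by TMM without chromosome 1 genes moved the log2 fold of all genes by 0.00135 and 0.0014. The 147 rises were 224 with DESeq2 and between 104 and 168 without any 1 library. The 28 falls were 87 with DESeq2, 47 without a filter, 16 at an average log2 CPM of at least 3, 46 in a fit of B73 and P1-ww714 alone, 15 at a threshold of 0.01, and between 15 and 56 without any 1 library. Of the 28, 27 were among the 87 of DESeq2. With the replicate number as a block there were 159 rises and 84 falls, with 137 and 26 of the reported calls among them. Same-numbered libraries of B73 and P1-ww714 had deviations that correlated at 0.274, 0.191 and -0.0359. Differently numbered libraries were not compared in this way, so these values cannot decide whether the numbers mark pairs. The labels do not say what a replicate number marks, and the main fit held no block for it. Separated genes numbered 1015 upwards and 940 downwards at an average log2 CPM of at least 3, and with 2 libraries left in a group between 2307 and 3243 upwards and between 2030 and 2959 downwards. The named genes called without any 1 library numbered between 29 and 40. The causes of these moves were not tested, except that fewer libraries in a group make separation easier by construction. Depth limits the genes with few counts, such as p1.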

Other observations

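Some identifiers of the count table are listed under 1 RefSeq gene, and they did not always move together. Whether such identifiers are parts of 1 gene was not tested. There were 270 RefSeq genes behind more than 1 tested identifier, 5 of them with at least 1 call and 3 with more than 1. In 1 of these 3 the calls had opposite directions, and this case was picked with its values in view. GRMZM2G008490, 12 genes after p1, had 354, 287 and 262 counts in B73 and 831, 590 and 715 in P1-ww714, with a log2 fold of 0.94 (95% interval 0.69 to 1.20). GRMZM2G329040, the next tested gene, is listed under the same RefSeq gene and had 1606, 2069 and 1692 counts against 1372, 1045 and 1459, with a log2 fold of -0.78 (95% interval -1.07 to -0.50). Another identifier of that gene, GRMZM2G703565, was at 0.89 (95% interval 0.39 to 1.39) and did not pass the test. The 2 called intervals do not overlap. The call of GRMZM2G329040 was lost when any 1 P1-ww714 library or B73 replicate 2 or 3 was left out (edgeR adjusted p up to 0.106), while that of GRMZM2G008490 held without any 1 library. The PDIL5-1 pair, at -1.45 and -0.54, is another of the 3, with both falling. In the remaining case GRMZM2G010657 (1.32) and GRMZM2G110406 (1.01) both rose. The first call was lost without B73 replicate 2 (edgeR adjusted p = 0.0511), and the other without any 1 P1-ww714 or B73 library (up to 0.118).

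In the 14 rises of 8-fold or more, B73 replicate 3 had the lowest CPM of the B73 libraries in 11 and 0 counts in 9. Over all 147 rises it was the lowest in 40.8%, and over all tested genes in 35.1%. In the falls before p1, P1-ww714 replicate 3 was the highest P1-ww714 library in 8 of 13, against 35.6% of all tested genes. It was the highest in 12 of all 28 falls, and in 21 of the 62 genes separated downwards before p1.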
